A study of Homo sapiens with 12 samples.

Results

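The EYA-, SIX- and DACH-family transcription regulators described here are 7 genes, EYA1, EYA2, EYA3, EYA4, SIX4, SIX5 and DACH1, among the 57500 genes counted in the libraries. They were chosen by symbol as relatives of EYA2, and EYA2 itself was picked because it had the largest rise with TST overexpression, so its values in overTST describe that choice and were not tested. RNA of HepG2, a human hepatocarcinoma cell line, was sequenced in 12 libraries, 4 each of unmodified cells (WT), of cells silenced for thiosulfate sulfurtransferase (shTST) and of cells overexpressing that enzyme (overTST). TST, also called rhodanese, is a mitochondrial enzyme that converts cyanide to thiocyanate, and the comparisons ask how transcription differs where its level is lowered or raised. All 3 groups were kept for 24 h in normal culture medium, whose glycine was 400 µM. The shTST cells carry a purchased shRNA plasmid, and the overTST cells carry a codon-optimised TST coding sequence under the CMV promoter, delivered by lentivirus with blasticidin selection. WT cells served as the control and no empty-vector library was analysed here, so an effect of transduction or selection and an effect of TST cannot be told apart. The sources used here do not say whether the modified lines are clones.

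EYA proteins are transcriptional co-activators that also act as phosphatases and have no DNA-binding domain of their own. SIX-family proteins are homeodomain factors that bind DNA and bring EYA proteins to their targets, and DACH proteins are related to the SKI family and can act with co-repressors in the same complexes. Together with PAX factors they form a network best known from the development of eye, ear, kidney and muscle, and its genes are largely quiet in adult liver.

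The libraries held 22911380 to 45120508 counts, with the overTST libraries at the low end (22911380 to 27414142). The share of counts from mitochondrially encoded genes was 10.8 to 11.7% in overTST, 6.84 to 8.65% in shTST and 6.91, 9.42, 6.95 and 12% in WT. A fit without these genes left the number of members called in each comparison with WT unchanged. There SIX4 was at -0.65 on the log2 scale in overTST (edgeR quasi-likelihood adjusted p = 0.00169). Any other part of this share in the results was not tested. WT replicates 2 and 4 stood apart from WT replicates 1 and 3, with a chi-square per gene of 17.7 to 38.3 between them and the rest of the WT group and between each other, against 6.19 between replicates 1 and 3 and 3.68 to 10.1 within the other groups. With WT replicates 1 and 3 only, the calls over all genes went from 2346 to 925 in shTST and from 4893 to 3088 in overTST. Values are given as counts, as CPM (each count scaled to a common library size after TMM) and, between genes, as RPKM (CPM per kilobase of merged exons). TST itself was at 49.0 ± 2.59 CPM in WT, 34.1 ± 1.62 in shTST and 57.9 ± 4.90 in overTST (mean ± SD, n = 4 each). It was lower in shTST (log2 fold change -0.52, edgeR quasi-likelihood adjusted p = 3.2e-06) and higher in overTST (0.24, adjusted p = 0.00384), although the WT and overTST ranges overlapped, and reads of the recoded transgene need not be assigned to the gene. All 9 hepatocyte markers examined were above 1 CPM in all 12 libraries. Of 17 markers of other cell types, 3 (LUM, KDR and MYOG) were at 0 in all 12 libraries. Another 4 were above 1 CPM in all 12, namely PDGFRB (14.7 to 23.6 CPM), TUBB3 (26.7 to 34.2), CD14 (4.11 to 6.09) and PECAM1 (1.41 to 3.50). The sum of the 17 was 54.5 to 67.2 CPM, and their part in the results was not tested. The submitters call the replicates independent, which the study defines as experiments on different days, and p-values measure the spread between these libraries. In bulk RNA, fewer cells with a transcript and less of it per cell cannot be told apart.

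The sequences upstream of SIX4 and DACH1 are shown because the first had counts in every library and the second had none. Each is the 250 bases before the RefSeq start site, 5′ to 3′ on the strand of the gene, on GRCh38.p14. Of the 7 members, 4 (EYA3, EYA4, DACH1 and SIX4) had an entry in the set of RefSeq promoters used here. SIX4 lies at chr14:60724352-60724601 and DACH1 at chr13:71867205-71867454, both on the minus strand, and 0 of the bases of either window lie inside the counted gene.
SIX4: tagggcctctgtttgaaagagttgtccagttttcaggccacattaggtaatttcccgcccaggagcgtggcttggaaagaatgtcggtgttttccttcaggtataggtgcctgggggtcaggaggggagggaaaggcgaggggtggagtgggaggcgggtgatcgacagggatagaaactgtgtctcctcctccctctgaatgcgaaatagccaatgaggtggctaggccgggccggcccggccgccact
DACH1: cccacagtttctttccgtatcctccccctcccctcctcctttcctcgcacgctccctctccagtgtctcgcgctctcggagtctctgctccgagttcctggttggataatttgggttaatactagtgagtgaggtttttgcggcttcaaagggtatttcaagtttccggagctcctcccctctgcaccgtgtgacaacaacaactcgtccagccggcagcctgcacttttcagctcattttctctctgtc
Neither window holds GGTTTC, the core of a SIX-family recognition motif, so no letters are in capitals. Both strands were searched for GGTTTC, for the longer TCAGGTTTC that contains it, and for TATAAA. Of 35116 such windows in the genome, 12.3% hold GGTTTC, 0.288% hold TCAGGTTTC and 10.7% hold TATAAA. The GC content was 58% with 11 CG dinucleotides for SIX4 and 54% with 12 for DACH1, beside medians of 58% and 11 over all windows. The windows of EYA3 and EYA4 are not shown, because 86 and 250 of their 250 bases lie inside the gene as it was counted. The EYA3 window does hold GGTTTC, 85 bases before the start on the strand of the gene, in the part inside the counted gene. That a motif is not in a window says only that these letters are not there.

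**Figure D1:**
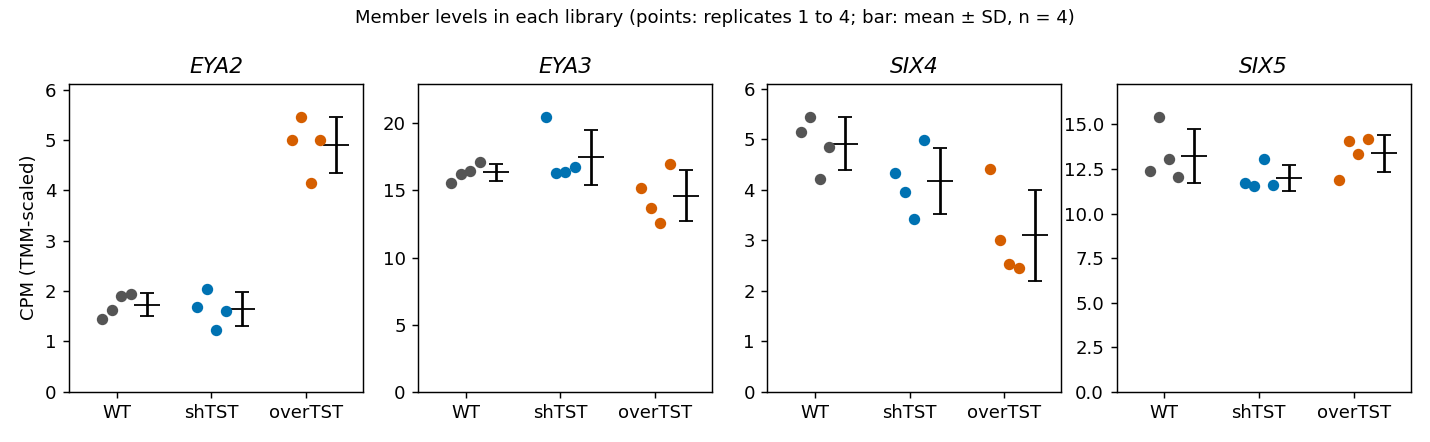
CPM of the expressed members in each of the 12 libraries, by group, with the group mean and SD. EYA2 sits at 4.15 to 5.46 CPM in overTST against 1.45 to 1.93 in WT, and SIX4 at 2.45 to 4.40 against 4.21 to 5.45.

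Of the EYA co-activators, EYA2 and EYA3 were detected and EYA1 and EYA4 were not. EYA2 (ENSG00000064655, chr20:46894624-47188844, plus strand) had 47, 74, 56 and 63 counts in WT, 47, 61, 42 and 48 in shTST, and 134, 129, 105 and 110 in overTST. In CPM the WT libraries were at 1.45, 1.63, 1.90 and 1.93, the shTST libraries at 1.68, 2.04, 1.22 and 1.59, and the overTST libraries at 5.0, 5.46, 4.15 and 5.0. The WT and shTST libraries thus shared one range, and every overTST library lay above both. The means were 1.73 ± 0.233, 1.63 ± 0.339 and 4.90 ± 0.550 CPM (SD, n = 4 each). The log2 fold change of overTST over WT was 1.51, or 2.85-fold, and that of shTST over overTST was -1.59, both given as the values behind the choice of EYA2. Leaving out each library in turn gave 1.44 to 1.58 for overTST over WT. These values carry the same choice and lend it no support. The shTST difference from WT, which the choice did not use, was -0.08 (95% interval -0.47 to 0.31, edgeR quasi-likelihood adjusted p = 0.814).

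Among genes with an average of at least 1 on the log2 CPM scale that passed the test and whose groups did not overlap, the next after EYA2 were TSPO at 1.07, AQP3 at 1.05 and DUSP5 at 1.04 on the log2 scale. At any level of expression 8 of the 14421 tested genes had a higher log2 fold change than EYA2. The counts behind EYA2 are small: the coefficient of variation from counting alone is 12.9% at the WT mean, where 13.5% was observed. The 5 annotated genes that overlap EYA2, one of which shares 52 exonic bases with it, had 0 counts.

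EYA3 (ENSG00000158161, chr1:27970344-28088696, minus strand) was the more abundant EYA gene, with 507, 738, 485 and 559 counts in WT, 573, 487, 564 and 504 in shTST, and 406, 324, 318 and 373 in overTST. Its CPM was 15.6, 16.2, 16.5 and 17.1 in WT, 20.5, 16.3, 16.3 and 16.7 in shTST and 15.2, 13.7, 12.6 and 17.0 in overTST. The means were 16.4 ± 0.643, 17.5 ± 2.03 and 14.6 ± 1.90 CPM (SD, n = 4 each). All 3 ranges overlapped. The log2 fold change was 0.09 in shTST (95% interval -0.06 to 0.25, edgeR quasi-likelihood adjusted p = 0.442) and -0.17 in overTST (-0.34 to 0.01, adjusted p = 0.144). Both comparisons use the same WT libraries. Between the modified lines EYA3 was higher in shTST than in overTST by 0.26 (SE 0.088, adjusted p = 0.0248), a difference that was 0.18 with an adjusted p of 0.138 without shTST replicate 1, whose 20.5 CPM was the highest value. It was also lost without overTST replicate 2 (0.23, adjusted p = 0.0750) or overTST replicate 3 (0.19, adjusted p = 0.12), and with a correction for gene length (0.19, adjusted p = 0.0987).

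The balance within the EYA pair differed in overTST. EYA2 had 0.105 ± 0.0107 counts for each EYA3 count in WT, 0.0942 ± 0.0224 in shTST and 0.338 ± 0.0432 in overTST (SD, n = 4 each), and the overTST ratios of 0.295 to 0.398 lay above all others. This ratio carries the same choice as EYA2 and was not tested.

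EYA1 (ENSG00000104313), EYA4 (ENSG00000112319) and DACH1 (ENSG00000276644), the co-repressor of the set, had 0 counts in all 12 libraries. A count of 0 allows up to 3 counts, which is 0.0659 to 0.136 CPM depending on the library, and this limit covers counting error only. Of all 57500 genes, 14584 had enough counts to be tested in shTST against WT. Within 500 kb, 1 of 10 genes near EYA1, 3 of 24 near EYA4 and 0 of 6 near DACH1 were tested there, beside 9 of 30 near EYA2, 22 of 56 near EYA3, 6 of 24 near SIX4 and 27 of 58 near SIX5, which is a description with no test.

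Of the SIX-family homeodomain factors, SIX4 was lower in overTST and SIX5 gave no difference that passed the test. SIX4 (ENSG00000100625, chr14:60709528-60724348, minus strand), which binds the promoters of muscle genes in development, had 167, 248, 124 and 158 counts in WT, 121, 118, 118 and 150 in shTST, and 118, 71, 64 and 54 in overTST. In CPM WT was at 5.14, 5.45, 4.21 and 4.85, shTST at 4.33, 3.95, 3.42 and 4.98, and overTST at 4.40, 3.01, 2.53 and 2.45. Replicates 2, 3 and 4 of overTST lay below every WT and shTST library, and replicate 1 lay within the WT range. The group means were 4.91 ± 0.527, 4.17 ± 0.655 and 3.10 ± 0.904 CPM (SD, n = 4 each). SIX4 fell by 0.66 on the log2 scale in overTST (SE 0.157, 95% interval -0.98 to -0.33, 0.634-fold, edgeR quasi-likelihood adjusted p = 0.00213), and without overTST replicate 1 the value was -0.89 with an adjusted p of 4.3e-05. With WT replicates 1 and 3 only it was -0.58 (adjusted p = 0.0320). The overTST libraries spread by 29.2% (coefficient of variation), against 11.4% from counting alone. In shTST the difference from WT was -0.25 (95% interval -0.51 to 0.02, adjusted p = 0.193). Between shTST and overTST it was 0.41 (0.08 to 0.75, adjusted p = 0.0529). It passed the test without overTST replicate 1 (0.64, adjusted p = 0.00211) or shTST replicate 3 (0.50, adjusted p = 0.0244). It was weaker without shTST replicate 4 (0.32, adjusted p = 0.186) or shTST replicate 1 (0.39, adjusted p = 0.103), and with the length correction (0.34, adjusted p = 0.105).

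Within each library SIX4 had 0.373 ± 0.0430 counts for each SIX5 count in WT, 0.351 ± 0.0697 in shTST and 0.237 ± 0.0905 in overTST (SD, n = 4 each). Replicate 1 of overTST, at 0.370, lay within the WT range of 0.322 to 0.414, and the other overTST libraries lay below it. The SIX5 counts in this ratio are uncertain, as described with that gene.

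**Figure D2:**
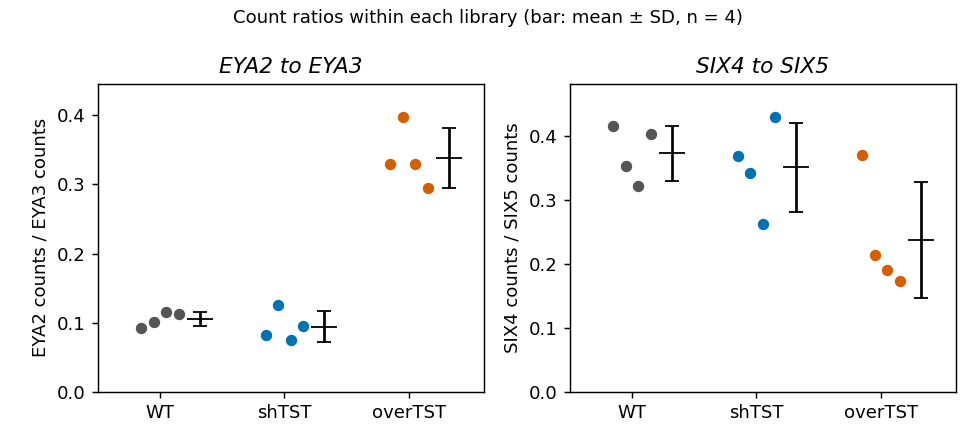
Ratios of counts between pairs of family genes in each of the 12 libraries, by group, with the group mean and SD. The EYA2/EYA3 ratio of 0.295 to 0.398 in overTST lies above all WT and shTST libraries, whereas the SIX4/SIX5 ratios of WT and overTST overlap.

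SIX5 (ENSG00000177045, chr19:45764785-45769226, minus strand), which lies beside the DMPK gene of myotonic dystrophy, was at 12.4, 15.4, 13.1 and 12.1 CPM in WT, 11.7, 11.6, 13.1 and 11.6 in shTST, and 11.9, 14.1, 13.3 and 14.2 in overTST. The means were 13.2 ± 1.53, 12 ± 0.728 and 13.4 ± 1.05 CPM (SD, n = 4 each) and the ranges overlapped throughout. The log2 fold change was -0.15 in shTST (95% interval -0.32 to 0.03, edgeR quasi-likelihood adjusted p = 0.251) and 0.01 in overTST (-0.18 to 0.19, adjusted p = 0.962). Its counts are uncertain, because 2020 of its exonic bases are shared with an antisense gene (ENSG00000259605, 571 counts over the 12 libraries) and 90 with DM1-AS (156 counts), and the sources used here do not state whether strand was used in counting.

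**Figure D3:**
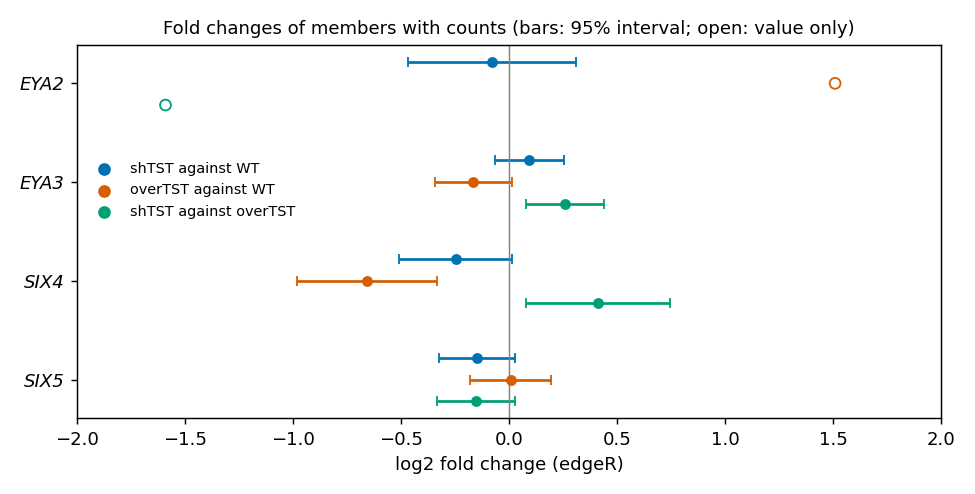
Log2 fold changes of the expressed members in the comparisons with WT and between the modified lines, with 95% intervals for the values that were tested. SIX4 at -0.66 in overTST is the tested member whose interval lies farthest from 0.

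Of the 4 members tested in shTST against WT, 0 passed an adjusted p of 0.05 by edgeR, DESeq2 or limma-voom. By edgeR 0 had an unadjusted p under 0.05. The share of all genes that passed the adjusted limit by edgeR was 16.1% (6.69% higher and 9.4% lower). The groups overlapped for all 4, beside 19.1% of all genes that did not overlap. In overTST against WT, 1 of the 3 members besides EYA2 passed (SIX4, lower), against 33.9% of all genes (15.7% higher and 18.2% lower). In shTST against overTST 1 of the same 3 passed (EYA3, higher), against 33% of all genes (16.9% higher and 16.1% lower). The groups of 4 overlapped for all 3 of these members there, beside 29.2% of all genes that did not overlap. In overTST against WT they also overlapped for all 3, beside 30.4% of all genes that did not overlap. EYA2 did not overlap in either comparison, but its overTST values chose it, so it is not counted. Counts of 0 or 1 among so few members do not set them apart from all genes. The median log2 fold change in overTST of genes of similar exonic length was 0.03 for EYA2, -0.07 for EYA3, -0.07 for SIX4 and 0.03 for SIX5.

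Per length, the order of the members in WT was SIX5 (3.72 ± 0.429 RPKM), EYA3 (2.52 ± 0.0991), SIX4 (0.737 ± 0.0791) and EYA2 (0.477 ± 0.0643), and neighbours in that order did not overlap. In shTST the ranges of SIX4 (0.626 ± 0.0984) and EYA2 (0.452 ± 0.0938) overlapped. In overTST EYA2 (1.36 ± 0.152 RPKM) stood above SIX4 (0.465 ± 0.136; SD, n = 4 each), so that the order of these genes was exchanged. This exchange carries the same choice as EYA2 and was not tested.

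**Figure D4:**
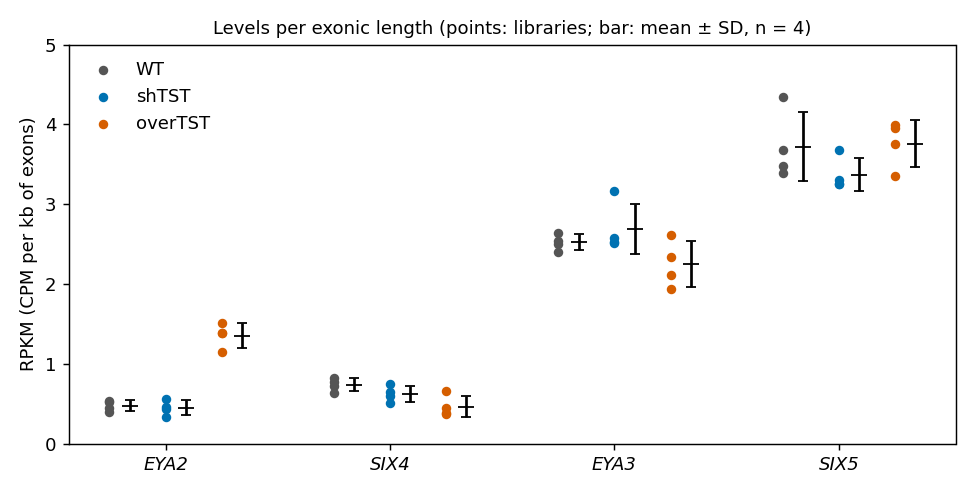
RPKM of the expressed members in each library, by group. EYA2 has a mean of 0.477 in WT and 1.36 in overTST, and SIX4 a mean of 0.737 in WT and 0.465 in overTST.

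The wider network was described from 4 lists. Among 11 other family members and PAX partners, 4 were expressed enough to test. Their median log2 fold change in shTST was -0.07. In overTST, by edgeR's quasi-likelihood test, 1 was higher and 1 lower, where 15.7% of all genes were higher and 18.2% lower. PAX6, a paired-box factor of eye and pancreas, rose from 1.87 ± 0.414 to 2.70 ± 0.355 CPM (log2 fold change 0.51, adjusted p = 0.0273). SOBP, a SIX-binding protein, fell from 29.4 ± 2.30 to 25.1 ± 1.70 CPM (-0.23, adjusted p = 0.0153, mean ± SD, n = 4 each). PAX6 was lost without any one of WT replicates 1 and 3 or overTST replicates 1, 2 and 3, and SOBP was lost with the length correction and without WT replicate 2 or overTST replicate 3.

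Co-regulators that work with these factors were mostly lower in overTST: of 14 tested, 2 were higher and 9 lower, with a median log2 fold change of -0.15 beside 0.00 over all genes. The Groucho-type co-repressor TLE3 fell from 34.1 ± 5.65 to 22.4 ± 2.11 CPM (-0.61, adjusted p = 1.9e-05 by edgeR's quasi-likelihood test) and the acetyltransferase EP300 from 111 ± 14.2 to 83.0 ± 3.50 CPM (-0.42, adjusted p = 4.3e-05; SD, n = 4 each). The 2 that rose were TLE5 (0.29, adjusted p = 1.1e-04), which lacks the repressor domains of its relatives, and TLE4 (0.55, adjusted p = 0.0245), both named after their values were seen, and TLE4 was lost without WT replicate 2, WT replicate 3, overTST replicate 2 or overTST replicate 4. Over all genes 15.7% were higher and 18.2% lower. Others that fell were CREBBP (-0.36), SIN3A (-0.38), SKIL (-0.41), SKI (-0.16), NCOR1 (-0.12) and HDAC3 (-0.14), of the acetyltransferase, SKI and deacetylase co-repressor families. With the length correction 3 were higher and 4 lower, with SKI, SKIL and HDAC3 among those lost and NCOR1 turned from -0.12 to 0.08 (adjusted p = 0.216). There EP300 was -0.24 (adjusted p = 0.00242), CREBBP -0.16 (adjusted p = 0.0492) and SIN3A -0.21 (adjusted p = 0.00848). The 11 calls became 7 without WT replicate 1, WT replicate 2 or overTST replicate 2, and 6 without overTST replicate 4.

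Genes reported as SIX-family targets moved in both directions. Of 15 tested, 1 was higher and 5 lower in shTST (median -0.08), where 6.69% of all genes were higher and 9.4% lower. In overTST 2 were higher and 5 lower (median 0.02), where 15.7% and 18.2% of all genes were. With the length correction 5 were higher and 5 lower in overTST (median 0.12), PFKL, PKM and LDHA being added. The glucose transporter SLC2A1 was at 1012 ± 132 CPM in WT, 653 ± 84.4 in shTST (log2 fold change -0.63, adjusted p = 2.8e-05 by edgeR's quasi-likelihood test) and 665 ± 37.3 in overTST (-0.61, adjusted p = 6.5e-07). ALDOA, a glycolytic aldolase, fell in shTST (-0.28, adjusted p = 0.00346) and rose in overTST (0.21, adjusted p = 0.0143, with overlapping groups, lost without WT replicate 1, overTST replicate 3 or overTST replicate 4). MYC, a proliferation factor, fell from 162 ± 7.95 to 124 ± 2.79 CPM in overTST (-0.38, adjusted p = 2.9e-06; SD, n = 4 each). The other genes that passed, named after their values were seen, were EZR, which links membrane to actin and was higher in both lines (0.15 and 0.20), HK2, a hexokinase lower in both (-0.17 and -0.27), PKM and MYC, lower in shTST (both -0.17), and the zinc-finger factor SALL1 (-0.46) and the cotransporter SLC12A2 (-0.51), lower in overTST. The shTST calls fell from 6 to 3 without shTST replicate 2 or shTST replicate 4. EZR and HK2 were lost in both of these fits, MYC in the former and PKM in the latter. The shTST calls of EZR and PKM were also lost without WT replicate 4. That of HK2 was lost without WT replicate 2, and that of PKM without shTST replicate 1.

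Of 8 tested substrates and partners of EYA phosphatases, 2 were lower in shTST, and 1 was higher and 4 lower in overTST (medians -0.04 and -0.14). Over all genes 6.69% were higher and 9.4% lower in shTST, and 15.7% were higher and 18.2% lower in overTST. MDC1, a mediator of the DNA damage checkpoint, was at 76.8 ± 4.82 CPM in WT, 66.3 ± 2.33 in shTST (-0.21, adjusted p = 0.00604 by edgeR's quasi-likelihood test) and 55.1 ± 2.62 in overTST (-0.48, adjusted p = 1.1e-06). The histone variant H2AX, an EYA substrate, rose from 337 ± 15.8 to 423 ± 34.6 CPM in overTST (0.33, adjusted p = 7.4e-05, and 0.16 with an adjusted p of 0.0128 after the length correction), and WDR1, an actin-disassembly factor, fell in shTST (-0.16, adjusted p = 0.0119; lost without WT replicate 4). PLK1, a mitotic kinase (-0.25), APBB1, an adaptor of the amyloid precursor protein (-0.51, lost without overTST replicate 4), and GNAZ, a G protein subunit (-0.20, lost without WT replicate 1), named after their values were seen, were the others that fell in overTST. Both comparisons share the WT libraries.

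**Figure D5:**
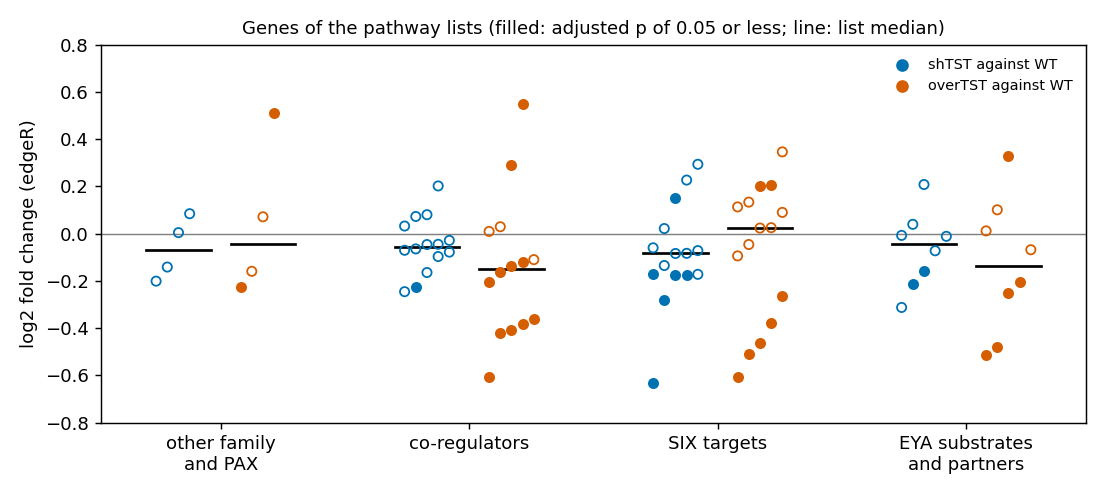
Log2 fold changes of the tested genes of the 4 lists in shTST and in overTST against WT, with the list medians. Co-regulators in overTST have a median of -0.15, and SLC2A1 is lower in both lines.

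The calls near members are given beside 16.1% of all genes in shTST and 33.9% in overTST, and are a description with no test. Within 500 kb of EYA2, 9 of 30 genes were tested, and in overTST 1 was higher and 4 were lower, with log2 fold changes of -0.28 to 0.17. ELMO2, which had the smallest p, was lower by 0.28 (adjusted p = 0.00100 by edgeR's quasi-likelihood test), and the one that rose, ZMYND8, 20.4 kb away and named after its value was seen, did so by 0.14 (adjusted p = 0.0304). In shTST 3 of these 9 were higher and 1 lower, and SULF2, a heparan sulfate sulfatase, had the smallest p (0.29, adjusted p = 2.4e-04). Around SIX4, the 6 tested genes had log2 fold changes of -0.28 to 0.02 in overTST, and in shTST 1 was higher, PPM1A (0.21, adjusted p = 0.0213), a phosphatase.

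Around EYA3, 3 of 22 tested genes were higher in shTST, with RPA2, a subunit of the single-stranded DNA binding complex, having the smallest p (0.34, adjusted p = 4.9e-04 by edgeR's quasi-likelihood test). In overTST 8 of 21 were higher and 3 lower, led by SMPDL3B (0.65, adjusted p = 6.2e-04). Around SIX5, 1 of 27 was higher and 6 were lower in shTST, led by the actin regulator VASP (-0.35, adjusted p = 4.4e-05), and 6 of 26 were higher and 2 lower in overTST, led by the spliceosome protein SNRPD2 (0.35, adjusted p = 1.1e-04). Of the 3 tested genes around the silent EYA4, RPS12, a ribosomal protein gene, was higher in overTST (0.20, adjusted p = 0.00585).

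The genes whose pattern over the 12 libraries was most like that of EYA2, by the root mean square difference of centred log2 CPM among 11562 genes, were AQP3 (0.291), DUSP5 (0.317), TSPO (0.362), LGALS3 (0.383) and DKK4 (0.395), beside a median of 0.755 over all genes. AQP3, a water and glycerol channel, was at 4.17 ± 0.817, 2.80 ± 0.452 and 8.70 ± 0.542 CPM in WT, shTST and overTST (SD, n = 4 each). DUSP5, a nuclear phosphatase acting on ERK, was at 2.95 ± 0.521, 2.47 ± 0.510 and 6.14 ± 0.453 CPM. TSPO, an outer mitochondrial membrane protein, was at 1.71 ± 0.108, 1.77 ± 0.152 and 3.57 ± 0.878 CPM. LGALS3, which encodes galectin-3, was at 38.4 ± 2.44, 30.0 ± 2.11 and 62.9 ± 3.82 CPM, and DKK4, a Wnt antagonist, at 4.53 ± 0.582, 3.73 ± 0.688 and 8.20 ± 0.950 CPM. In each, the overTST mean was the highest of the 3. These genes were picked for likeness, so their levels are a description.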

How the data were processed

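RNA of 12 HepG2 libraries, 4 each of WT, shTST and overTST, was sequenced. The authors deposited raw counts per Ensembl gene, one table per library. The submitters' processing notes name Trimmomatic 0.36, STAR 2.5.2b, featureCounts of Subread 1.5.2 and GRCh38; the annotation release and strand setting are not given in the sources used here. Groups came from the labels. CPM used TMM over all 12 libraries. Comparisons were fitted with edgeR 4.0.16 (R 4.3.3), those with WT on their 8 libraries and shTST against overTST on all 12, by the quasi-likelihood test with TMM scaling, edgeR's expression filter and Benjamini-Hochberg adjustment over all tested genes (14584, 14421 and 14883 for shTST and overTST against WT and for shTST against overTST), at 0.05. Alternatives were DESeq2 1.42.0, limma-voom (limma 3.58.1), other scalings and filters and a fit without mitochondrially encoded genes. Others were a gene length correction, a replicate block and each library left out. The fit was tested on simulated counts. No 2 replicates were copies. Named genes were the members, TST, the 2 smallest p per list and comparison with WT, the neighbour within 500 kb with the smallest p, the 5 genes most like EYA2 and the next genes in rise. The members and lists were chosen with earlier results of these data known, and the list alternatives and that with WT replicates 1 and 3 only after seeing the data. Some genes of the lists are not reported here.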

Additional observations from a re-analysis of the deposited data

Results flagged for a closer look

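Of 12 sets of 4 libraries (gene by group) 2 had a library far from the others, by the gap to its nearest neighbour over the range of the set, past Dixon's 95% limit for 4 values. EYA3 in shTST had a ratio of 0.902, with replicate 1 at 20.5 CPM and the others at 16.3 to 16.7. SIX5 in shTST had a ratio of 0.881, with replicate 3 at 13.1 CPM and the others at 11.6 to 11.7. Chance flags about 1 in 20 such sets. Without shTST replicate 1, the EYA3 difference between shTST and overTST was 0.18 on the log2 scale with an edgeR quasi-likelihood adjusted p of 0.138.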

How the results depend on the processing

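The 1 member called in shTST against overTST (EYA3) became 2 with DESeq2, with no filter on low counts and with the replicate block, as SIX4 was added (0.42, 0.43 and 0.43 on the log2 scale, adjusted p = 0.0396, 0.0195 and 0.0264), and 0 with the length correction alone or together with the replicate block. Leaving out each library gave 0 to 2 members there and 1 to 2 in overTST against WT, where EYA3 was added without overTST replicate 4 (-0.24, adjusted p = 0.0389). SIX4 in overTST kept its direction and its call under all 12 alternatives (-0.69 to -0.58, of which -0.58 with WT replicates 1 and 3 only, chosen after seeing the data, had an adjusted p of 0.0320) and all 8 leave-one-out fits (-0.89 to -0.57, adjusted p 4.3e-05 to 0.0145). Over all genes, the 2346 calls in shTST against WT became 1513 without shTST replicate 1 and 925 with WT replicates 1 and 3 only. Deviations of same-numbered libraries had correlations of -0.05 to 0.08, and 10 of 24 best matches were with the own number. The numbers were not taken to pair samples. For its cell-based assays the study states that every run on each day held both control and treated samples. It does not say whether same-numbered libraries shared a day, and these values cannot decide it. The block gave 2980, 5166 and 5232 calls over all genes in the 3 comparisons against 2346, 4893 and 4907 without it. Counts of 42 to 134 per library limit the precision for EYA2, and those of 54 to 248 for SIX4.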
